A study of Mus musculus with 9 samples.

Results

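The genes described here are the mouse aldehyde, alcohol, aldo-keto and flavin oxidoreductases, together with the epoxide hydrolases. They were chosen by symbol as the Aldh, Adh, Akr1, Akr7, Fmo, Aox and Ephx genes without Akr1d1 and Aldh4a1, which gave 57 genes of the 24541 gene symbols with deposited values. There were 20 aldehyde dehydrogenases (ALDH), 16 aldo-keto reductases (AKR), 7 flavin-containing monooxygenases (FMO), 6 alcohol dehydrogenase symbols (ADH, of which Adh6-ps1 is a pseudogene), 4 aldehyde oxidases (AOX) and 4 epoxide hydrolases (EPHX). Of the 57 genes, 39 had a mean of at least 0.5 FPKM over all libraries and were tested, and 18 fell under that filter. FPKM is the number of fragments per kilobase of transcript, scaled to the total of mapped fragments in the library.

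Messenger RNA was sequenced from whole liver of 9-week-old Balb/c mice in 3 groups of 3 livers, 1 library per liver. The groups were vehicle, APAP (acetaminophen, the analgesic whose overdose injures the liver) and LRH1 together with APAP, written LRH1+APAP. LRH1 (liver receptor homolog-1) is the nuclear receptor encoded by Nr5a2, and the study concerns the transcription factors that keep hepatocyte identity. No group received LRH1 without APAP, and the sources used here do not give the dose, route, time of collection, sex or the form in which LRH1 was delivered. The sample labels (LRH1+APAP) were followed where the series text has LRH1 alone. Nr5a2 stood at 14.7, 13.1 and 12.3 FPKM in the vehicle livers, at 10.8, 9.29 and 10.3 FPKM in the APAP livers and at 205.7, 83.8 and 113.4 FPKM in the LRH1+APAP livers. Its level in the LRH1+APAP livers was above that of every APAP liver, with a log2 difference of 3.50 (SE 0.27, limma adjusted p = 0.00102).

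The oxidoreductases among these enzymes pass electrons between their substrates and cofactors, and the liver is the organ in which many of them are most abundant. Alcohol dehydrogenases oxidise ethanol and retinol to aldehydes, aldehyde dehydrogenases carry aldehydes on to acids, and aldo-keto reductases run the opposite way, from aldehydes and ketosteroids to alcohols. Aldehyde oxidases use a molybdenum cofactor, flavin-containing monooxygenases add oxygen to nitrogen and sulphur atoms, and epoxide hydrolases open reactive epoxides. Many of the genes lie side by side as products of local duplication.

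The 3 groups were compared in 1 limma model over all 9 libraries on log2(FPKM + 1), and a gene is said to have risen or fallen only where its p-value, adjusted over the 12202 tested genes, was under 0.05. Differences are on that log2(FPKM + 1) scale, which understates the change of genes near 1 FPKM. The median difference over all tested genes was 0.25 between APAP and vehicle, 0.22 between LRH1+APAP and vehicle and -0.01 between LRH1+APAP and APAP. After upper-quartile scaling the first median became 0.04 and the second 0.02, so small differences against vehicle depend on the scaling and are best read against those medians. Spearman correlations over genes were 0.990 between vehicle livers, 0.949 to 0.977 between APAP livers and 0.989 to 0.991 between LRH1+APAP livers. Nothing in the labels says that the livers were handled as separate experiments, and p-values measure the spread between these animals only.

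In the vehicle livers 16 of the 39 tested genes exceeded 100 FPKM, 15 lay between 10 and 100, 5 between 1 and 10, and 3 under 1. Adh1, the class I enzyme that oxidises ethanol and retinol, had the highest level at 1007 ± 107 FPKM (SD, n = 3). Aldh1a1, which makes retinoic acid from retinaldehyde, followed at 874 ± 67.2 FPKM, then Akr1c6, a ketosteroid reductase, at 690 ± 32.7 FPKM and Ephx2, the soluble epoxide hydrolase, at 678 ± 88.8 FPKM. The levels of Akr1c6 and Ephx2 did not differ beyond their spread. In the APAP livers Ephx2 stood first at 482 ± 99.6 FPKM, ahead of Adh1 at 446 ± 178 FPKM and Aldh1a1 at 438 ± 29.6 FPKM, and these 3 did not differ beyond their spread. In the LRH1+APAP livers Aldh1a1 stood first at 719 ± 44.4 FPKM and Adh1 next at 622 ± 18.8 FPKM.

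**Figure D1:**
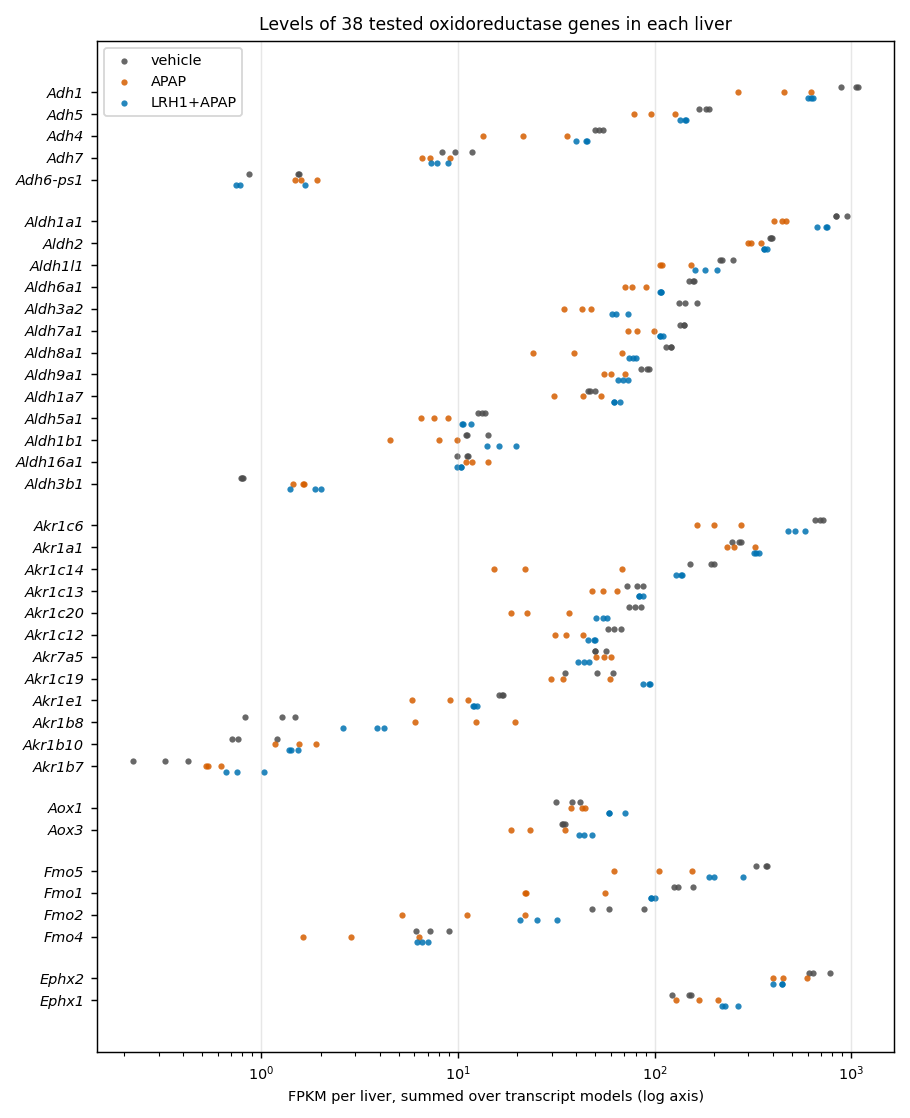
FPKM of 38 of the 39 tested genes in each of the 9 livers on a log axis, ordered by family and by vehicle level, with 1 point per liver and 1 colour per group. The APAP points of most ADH, ALDH and FMO genes lie to the left of the vehicle points, and Akr1b8 is an exception at 6.04 to 19.6 FPKM against 0.830 to 1.48 FPKM.

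Most of these genes had neighbours of the same family. All 6 ADH symbols lay in chr3:138217774-138455499 (mm10, as deposited), 9 AKR genes in chr13:4059592-4609164, 4 Akr1b genes in chr6:34303931-34423137 and 4 Aox genes in chr1:58029970-58379264. Aldh1a1 and Aldh1a7 adjoin in chr19:20601983-20727556. Neighbours of similar sequence can exchange reads, so the share of each transcript's 50-base stretches that also occur in another gene was counted. Akr1c12 and Akr1c13 shared 28.6% of their stretches with each other, Aldh1a7 shared 7.49% with Aldh1a1, and Aldh3b1 shared 8.69% with Aldh3b3. The split of reads between such pairs is uncertain.

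Because LRH1 was the agent given, the promoter windows of the members were read from RefSeq (GRCm38.p6), from 250 bases before to 50 bases after the start. The letters CAAGGNC, in which N is any base, were searched on both strands as a loose form of the element that LRH1 is known to bind. Of 45 genes with a window, 10 held them, which is 22.2%, against 17.8% of 32851 RefSeq promoter windows. Stretches of 3 genes that rose from APAP to LRH1+APAP are printed 5′ to 3′ with the match in capitals, to show where it lies. They were chosen after the values were seen, all 3 are on the plus strand, and they cover chr19:20601868-20601967, chr13:4434243-4434342 and chr6:90550543-90550642 in the order given.
Aldh1a1: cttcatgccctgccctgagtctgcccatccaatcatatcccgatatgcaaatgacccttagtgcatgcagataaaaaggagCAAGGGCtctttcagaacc
Akr1c6: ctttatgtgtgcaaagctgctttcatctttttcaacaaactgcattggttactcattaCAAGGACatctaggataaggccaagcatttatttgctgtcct
Aldh1l1: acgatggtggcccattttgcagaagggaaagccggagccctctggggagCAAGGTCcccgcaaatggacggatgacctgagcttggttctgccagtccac

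Counted from the start, the match lay at positions -19 to -13 in Aldh1a1, -42 to -36 in Akr1c6 and -201 to -195 in Aldh1l1. Among tested genes with a window, 8 held the letters, and 4 of those rose and 1 fell between APAP and LRH1+APAP. Of the 24 without the letters, 10 rose and 1 fell. The gene that held the letters and fell was Akr1b8. The letters TGACNNNGC, the core of the element bound by the stress factor NRF2, occurred in 5 of the 45 windows (11.1%) and in 12.4% of all windows. A match of this kind describes letters and not a bound site.

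The first comparison asks what APAP alone changed. In the APAP livers 25 of the 39 genes were lower than in vehicle, 3 were higher and 11 did not pass the threshold. Over all tested genes 15.1% were lower and 47.8% higher in this comparison. The median difference was -0.72 for the members and 0.25 for all tested genes. With upper-quartile scaling 27 members were lower and 2 higher, while the split over all genes moved from 5835 higher and 1845 lower to 3810 higher and 3227 lower. When genes were tested without the filter (18833 genes, limma), 7 of the 15 members with lower means that had any value above 0 were higher and 1, Fmo6, was lower (log2 difference -0.054, adjusted p = 0.0262), where 35.7% of all genes were higher and 9.95% lower. The summed level of the 57 genes was 5972 to 6754 FPKM in vehicle livers and 2800 to 4291 FPKM in APAP livers, which is 1.06% to 1.18% and 0.507% to 0.772% of all FPKM.

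Whole liver was sequenced, so fewer cells of a type and less RNA per cell cannot be told apart. Of 10 marker genes of the hepatocytes next to the central vein, 9 fell with APAP, and their summed level was 9805 to 10491 FPKM in vehicle, 2122 to 2966 FPKM in APAP and 4821 to 5239 FPKM in LRH1+APAP livers, with no marker at 0. Most of each of these sums came from 1 gene, Cyp2e1, whose levels are given below. Of 9 general hepatocyte markers 5 fell and 1 rose with APAP, and the summed level went from 53559 to 57977 FPKM to 48316 to 50347 FPKM. That split was 7 lower and 0 higher with upper-quartile scaling (limma), 2 and 2 with quantile normalization, and 3 to 5 lower with a liver left out. Of 9 monocyte and neutrophil markers all 9 rose with APAP (7 with quantile normalization), with a summed level of 28.6 to 31.3 FPKM in vehicle and 86.2 to 528.5 FPKM in APAP livers. The part of these cell types in the differences below was not tested.

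**Figure D2:**
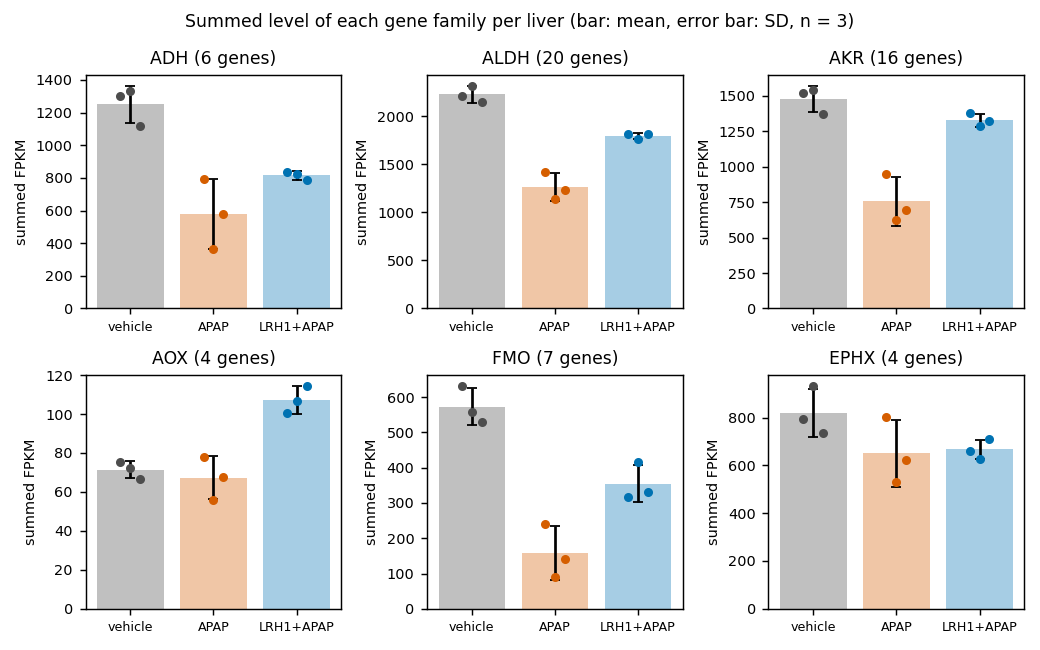
Summed FPKM of each gene family in each liver, with bars for the mean and error bars for the SD of 3 livers. Every APAP liver is under every vehicle liver for ADH, ALDH, AKR and FMO, whereas AOX and EPHX overlap, and AOX is highest in the LRH1+APAP livers at 100.3 to 114.4 FPKM.

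Of the 5 tested alcohol dehydrogenase symbols, 3 fell with APAP. Adh1 stood at 1052, 1084 and 885 FPKM with vehicle and at 620, 264 and 453 FPKM in APAP livers, a log2 difference of -1.25 (SE 0.26, adjusted p = 0.00305). The groups did not overlap, and APAP liver 2 had the lowest level. Adh4, the class II enzyme, went from 52.1 ± 2.52 to 23.6 ± 11.3 FPKM (n = 3 each), a difference of -1.21 with adjusted p = 0.0047 in limma. Adh5 is the glutathione-dependent enzyme that removes formaldehyde and S-nitrosoglutathione, and it went from 183, 189 and 169 FPKM to 127, 78.5 and 95.3 FPKM. Its difference was -0.87 (SE 0.15, adjusted p = 0.00139). Adh7, the class IV retinol enzyme known mainly from the stomach, stood at 9.88 ± 1.73 and 7.63 ± 1.35 FPKM and did not pass the threshold (limma adjusted p = 0.0712).

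Among the 13 tested aldehyde dehydrogenases 10 fell with APAP and 1 rose. Aldh3a2 encodes the microsomal enzyme that clears long-chain fatty aldehydes. Its FPKM was 142, 165 and 133 in vehicle livers and 42.9, 34.6 and 47.4 in APAP livers, the groups did not overlap, and its log2 difference was -1.80 (SE 0.13, adjusted p = 3.73e-05). Aldh1a1 stood at 835, 951 and 835 FPKM and then at 464, 406 and 444 FPKM, so that its mean with APAP was 0.501 of the vehicle mean. Its difference was -0.99 (SE 0.09, adjusted p = 8.88e-05). Aldh8a1, an enzyme of tryptophan breakdown, was more uneven, at 121, 121 and 114 FPKM in vehicle livers and 68.0, 24.1 and 39.04 FPKM in APAP livers. Its difference was -1.54 (SE 0.29, adjusted p = 0.00209).

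Aldh6a1, the mitochondrial enzyme of valine and pyrimidine breakdown, went from 155 ± 4.71 to 79.2 ± 10.4 FPKM (n = 3 each), with a log2 difference of -0.96 and adjusted p = 0.000106 in limma. Aldh1l1, which oxidises formyltetrahydrofolate in the cytosol, went from 250.6, 215 and 220 FPKM to 153, 107 and 109 FPKM, a difference of -0.91 (adjusted p = 0.00112). Aldh2, the mitochondrial enzyme that clears acetaldehyde, changed least among the genes of the family that fell. Its levels were 394, 388 and 389 FPKM in vehicle livers and 347, 309 and 299 FPKM in APAP livers, so that the mean with APAP was 0.815 of the vehicle mean. Its difference was -0.30 (SE 0.07, adjusted p = 0.00646) and became -0.57 with upper-quartile scaling.

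Aldh1b1, a second mitochondrial acetaldehyde enzyme, went from 12.1 ± 1.87 to 7.46 ± 2.75 FPKM, and its difference of -0.68 (limma adjusted p = 0.0346) depended on single livers. Without APAP liver 2 the difference was -0.39 (adjusted p = 0.0706), and the adjusted p was also past 0.05 when any 1 vehicle liver, APAP liver 3 or LRH1+APAP liver 3 was left out, reaching 0.112 without vehicle liver 1. The remaining genes of the family that fell were Aldh5a1, Aldh7a1 and Aldh9a1, enzymes of 4-aminobutyrate, lysine and carnitine metabolism, with differences of -0.54 to -0.72. Aldh1a7, the neighbour of Aldh1a1, did not pass the threshold, and its levels of 45.7, 46.7 and 49.5 FPKM in vehicle livers and 53.1, 30.9 and 43.0 FPKM in APAP livers overlapped. Its difference was -0.19 (SE 0.16, limma adjusted p = 0.332) and changed sign without APAP liver 2, to 0.02. Aldh3b1, which oxidises lipid aldehydes, was the family member that rose, from 0.8003, 0.803 and 0.786 FPKM to 1.62, 1.65 and 1.44 FPKM. The difference of 0.52 (adjusted p = 0.00195) was lost with quantile normalization, at 0.20 with adjusted p = 0.106.

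Among the 12 tested aldo-keto reductases 6 fell and 2 rose with APAP. The genes that fell all lay in the chromosome 13 group. Akr1c14, the hydroxysteroid dehydrogenase that inactivates androgens and progestins, had the largest fall of all members with a mean of at least 1 FPKM. It stood at 201, 192 and 152 FPKM with vehicle and at 68.5, 15.3 and 22.02 FPKM in APAP livers, a difference of -2.61 (SE 0.44, adjusted p = 0.00122). Akr1c6 went from 692, 722 and 656 FPKM to 274, 164 and 199 FPKM, a difference of -1.73 (SE 0.17, adjusted p = 0.000121). Akr1c20 fell by 1.64 on the log2 scale (limma adjusted p = 0.000346), from 79.6 ± 5.73 to 25.9 ± 9.59 FPKM.

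Akr1c13, which reduces dicarbonyls and steroids, had a smaller fall, from 80.13 ± 7.16 to 55.8 ± 8.24 FPKM (log2 difference -0.52, limma adjusted p = 0.00343), and upper-quartile scaling moved it to -0.79. Akr1c19, which lies between Akr1c13 and Akr1c6, did not pass the threshold, at 61.4, 51.2 and 34.99 FPKM in vehicle and 59.4, 29.7 and 34.2 FPKM in APAP livers. Its difference was -0.28 (adjusted p = 0.373), and without APAP liver 1 it was -0.57 with adjusted p = 0.0315. Akr1a1, the general aldehyde reductase that serves ascorbate synthesis in mice, stood at 263 ± 14.9 and 271 ± 47.9 FPKM. Its difference of 0.03 changed sign under upper-quartile scaling, to -0.24, and was not past the threshold.

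In the Akr1b group on chromosome 6 the 2 genes that passed the threshold rose with APAP. Akr1b8, a reductase of aldehydes and retinaldehyde that is induced by growth factors, rose from 1.27, 1.48 and 0.830 FPKM to 6.04, 19.6 and 12.3 FPKM. Its mean with APAP was 10.6 times the vehicle mean, with a log2 difference of 2.51 (SE 0.34, adjusted p = 0.00046), and the 3 APAP livers differed more than 3-fold among themselves. Akr1b10 also rose, from 0.892 ± 0.271 to 1.54 ± 0.365 FPKM, although 1 APAP liver at 1.17 FPKM lay under the highest vehicle liver at 1.20 FPKM. Its adjusted p of 0.0202 became 0.0731 without vehicle liver 2, 0.0677 without vehicle liver 3 and 0.0715 without APAP liver 3. It was also lost with upper-quartile scaling (0.0983) and quantile normalization (0.472). Akr1b7 stood at 0.323 ± 0.0994 and 0.562 ± 0.0554 FPKM, with no overlap and adjusted p = 0.0648 in limma.

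All 5 tested flavin-containing monooxygenases fell with APAP, and their median log2 difference of -2.14 was the lowest of the 6 families. Fmo1 stood at 156, 131 and 126 FPKM with vehicle and at 56.2, 22.2 and 22.001 FPKM in APAP livers, a log2 difference of -2.14 (SE 0.31, adjusted p = 0.000588). Fmo5, the most abundant of them here, went from 371, 369 and 329 FPKM to 155, 62.2 and 105 FPKM, with a difference of -1.81 and adjusted p = 0.000966. Fmo2 fell from 87.9, 48.1 and 58.6 FPKM to 21.8, 5.18 and 11.2 FPKM, a difference of -2.41 (adjusted p = 0.00151). In each of these genes APAP liver 1 retained the highest level of its group.

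Fmo4 overlapped between the groups, at 7.44 ± 1.46 and 3.62 ± 2.45 FPKM, and its difference of -0.99 (limma adjusted p = 0.023) was -0.65 without APAP liver 2 (adjusted p = 0.0532). It was also past 0.05 without vehicle liver 1 (0.0775), vehicle liver 3 (0.0542) or APAP liver 3 (0.0678).

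The aldehyde oxidases and the microsomal epoxide hydrolase did not fall beyond the threshold. With limma, 0 of the 2 tested Aox genes passed, and 1 had an unadjusted p under 0.05. Aox1 stood at 41.5, 38.1 and 31.5 FPKM with vehicle and at 42.8, 37.4 and 44.3 FPKM in APAP livers, and its difference of 0.17 changed sign with upper-quartile scaling, to -0.10. Aox3, a second aldehyde oxidase of mouse liver, went from 34.3 ± 0.665 to 25.6 ± 8.53 FPKM (adjusted p = 0.06), with APAP liver 1 at 35.04 FPKM inside the vehicle range. Its difference passed without that liver (-0.70, adjusted p = 0.000406), with upper-quartile scaling (-0.72, adjusted p = 0.016) and with quantile normalization (-0.66, adjusted p = 0.0247). Ephx1, which opens epoxides of xenobiotics, stood at 142 ± 16.9 and 169 ± 41.1 FPKM (adjusted p = 0.283), and its difference of 0.23 became -0.04 with upper-quartile scaling. Ephx2, which hydrolyses fatty acid epoxides, fell from 642, 779 and 612 FPKM to 593, 401 and 452 FPKM, a difference of -0.50 with adjusted p = 0.0165. Leaving out vehicle liver 2 (adjusted p = 0.063) or APAP liver 3 (0.0547) ended that call.

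**Figure D3:**
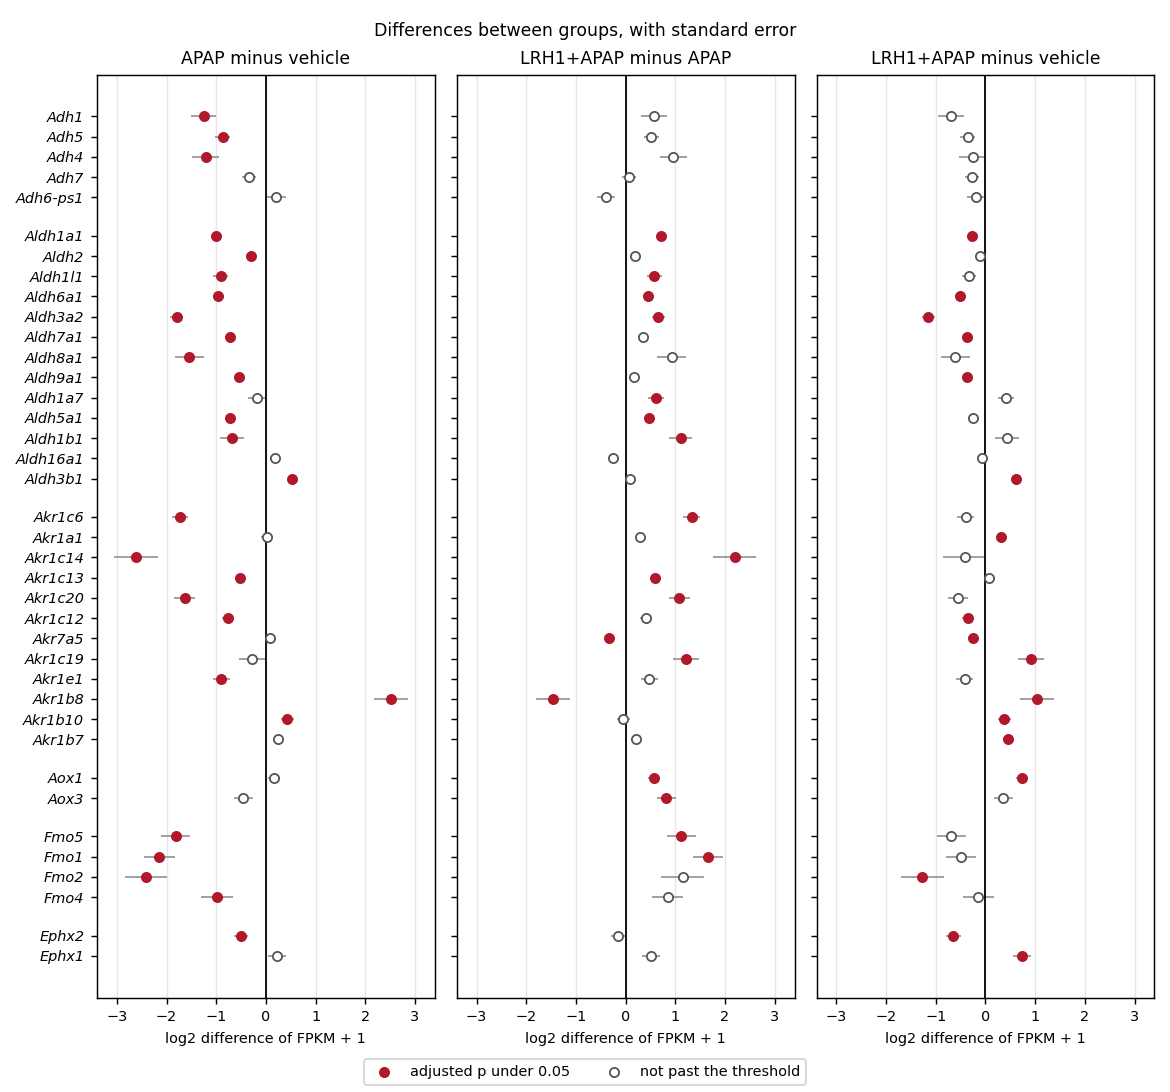
Differences between group means of log2(FPKM + 1) with their standard errors for 38 of the 39 tested genes, in 3 panels for the 3 comparisons, with filled points for an adjusted p under 0.05. In the left panel 24 filled points lie left of 0, in the middle panel 16 lie right of 0, and in the right panel 8 lie right and 9 left.

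The second comparison asks what differed between livers given LRH1 with APAP and livers given APAP alone. It shares the APAP livers with the first comparison and the LRH1+APAP livers with the third, so the 3 sets of differences are not independent. Of the 39 genes 16 were higher in the LRH1+APAP livers, 2 were lower and 21 did not pass the threshold. Over all tested genes 7.13% were higher and 5.17% lower, and the median difference was 0.56 for the members and -0.01 for all genes. The summed level of the 57 genes was 5021 to 5108 FPKM in the LRH1+APAP livers against 2800 to 4291 FPKM in the APAP livers. All 10 markers of hepatocytes near the central vein rose too, or 8 to 10 with a liver left out. Of 9 general hepatocyte markers 1 rose and 2 fell, and of 8 markers of hepatocytes near the portal vein 1 rose and 1 fell. The part of these cell types was not tested.

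The number of genes called in this comparison depended on single livers. Without APAP liver 1, 30 members were higher, and without APAP liver 3, 3 were. Leaving out LRH1+APAP liver 1, 2 or 3 left 4, 2 and 2 members higher, without APAP liver 2 there were 13, and without 1 vehicle liver there were 12 to 13. Only 2 of the 18 called genes, Akr1c6 and Aldh1a1, were called under every alternative that was run.

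In the ADH family 0 genes were called in this comparison by limma, and 2 of 5 had an unadjusted p under 0.05, both higher in LRH1+APAP livers. Adh1 stood at 638, 626 and 601 FPKM in the LRH1+APAP livers, with APAP liver 1 at 620 FPKM inside that range, and the log2 difference was 0.56 (SE 0.26, adjusted p = 0.165). Adh4, at 44.96, 45.5 and 39.9 FPKM, lay above all 3 APAP livers (35.8, 13.5 and 21.5 FPKM). Its difference was 0.96 with adjusted p = 0.0532. Adh5 lay above them as well, at 145, 142 and 135 FPKM, with a difference of 0.51 and adjusted p = 0.0579. Without APAP liver 1 all 3 passed, with differences of 0.844, 1.2998 and 0.694 for Adh1, Adh4 and Adh5 and adjusted p of 0.0137, 0.00117 and 0.00138, and Adh4 also passed with the filter at a mean of 5 FPKM (0.0484).

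Among the aldehyde dehydrogenases 7 of 13 were higher. Aldh1a1 reached 749, 668 and 740 FPKM against 464, 406 and 444 FPKM in APAP livers, a difference of 0.71 (SE 0.09, adjusted p = 0.00424, and at most 0.0288 under the alternatives). Aldh1b1 stood at 14.0, 19.8 and 16.2 FPKM against 9.92, 4.50 and 7.97 FPKM, and its mean with LRH1+APAP was 2.23 times that with APAP (difference 1.104, adjusted p = 0.0253). Aldh3a2 rose to 63.6, 60.3 and 72.9 FPKM, a difference of 0.65 (adjusted p = 0.0205) that left it under every vehicle liver. Aldh1a7 reached 62.4, 62.3 and 66.3 FPKM, above all other livers, with a difference of 0.61 and adjusted p = 0.0429. Without APAP liver 2 that difference was 0.41.

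Aldh1l1 (180, 207 and 161 FPKM in LRH1+APAP livers) and Aldh6a1 (108, 106 and 107 FPKM) rose by 0.58 and 0.44, with adjusted p of 0.0402 and 0.0217 in limma. The seventh gene was Aldh5a1, with a difference of 0.47. Apart from Aldh1a1, each of these calls was lost when LRH1+APAP liver 1, 2 or 3 was left out, and, apart from Aldh3a2, when APAP liver 3 was. The calls of Aldh1l1 and Aldh1a7 were also lost without any 1 vehicle liver, and that of Aldh1l1 without APAP liver 2. The highest adjusted p over the alternatives was 0.134 for Aldh1l1, 0.132 for Aldh1a7, 0.0973 for Aldh5a1, 0.093 for Aldh1b1, 0.0825 for Aldh3a2 and 0.081 for Aldh6a1. Aldh2 stood at 360, 360 and 372 FPKM and did not pass the threshold (difference 0.20, adjusted p = 0.1), nor did Aldh8a1 at 73.8, 80.5 and 77.6 FPKM (difference 0.93, adjusted p = 0.0678). Both passed without APAP liver 1, at 0.00825 and 0.00121.

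Among the aldo-keto reductases 5 of 12 were higher and 2 lower. Akr1c14 had the largest rise, from 68.5, 15.3 and 22.02 FPKM to 129, 136 and 138 FPKM, a log2 difference of 2.19 (SE 0.44, adjusted p = 0.0202). Akr1c6 rose from 212 ± 56.5 to 525 ± 51.6 FPKM (n = 3 each), with a difference of 1.33 and adjusted p = 0.00432 in limma, at most 0.0326 under the alternatives. Akr1c19 stood at 93.7, 95.1 and 86.9 FPKM, above every vehicle and APAP liver, with a difference of 1.21 and adjusted p = 0.0256. Akr1c20, at 57.1, 50.1 and 54.5 FPKM, and Akr1c13, at 82.8, 86.9 and 83.2 FPKM, rose by 1.08 and 0.60 with adjusted p of 0.0183 and 0.0159. Apart from Akr1c6, these calls were lost without APAP liver 3, LRH1+APAP liver 2 or LRH1+APAP liver 3, and for Akr1c14, Akr1c19 and Akr1c20 also without LRH1+APAP liver 1. Akr1c19 was also lost without APAP liver 2 (0.0544), and the highest adjusted p was 0.0785 for Akr1c14, 0.0878 for Akr1c19, 0.0701 for Akr1c20 and 0.0663 for Akr1c13.

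Akr1b8 and Akr7a5 were the 2 members that fell. Akr1b8 stood at 4.18, 2.602 and 3.85 FPKM in LRH1+APAP livers against 6.04, 19.6 and 12.3 FPKM in APAP livers, and its mean was 0.281 of the APAP mean. The difference was -1.47 (SE 0.34, adjusted p = 0.0302), with adjusted p up to 0.105 when 1 liver was left out, and the call held without vehicle liver 3, APAP liver 1 and APAP liver 2. Akr7a5, which reduces aflatoxin dialdehyde and succinic semialdehyde, stood at 43.7, 46.2 and 40.6 FPKM against 60.3, 54.9 and 50.2 FPKM. Its difference was small, -0.33 with adjusted p = 0.0463, and of the 9 fits that left out 1 liver only that without APAP liver 1 kept it, the others giving up to 0.149. Upper-quartile scaling gave 0.0681.

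**Figure D4:**
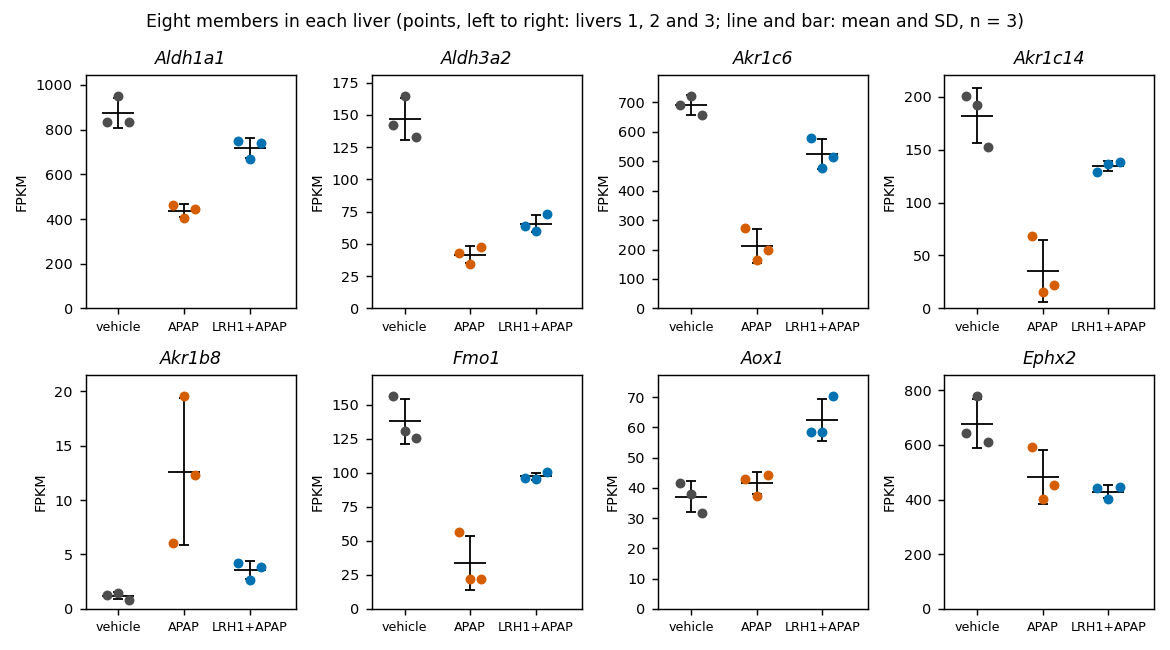
FPKM of 8 members in each liver, on linear axes that start at 0, with the mean as a line and the SD of 3 livers as a bar. Akr1c14 falls from 152 to 201 FPKM in vehicle livers to 15.3 to 68.5 FPKM in APAP livers and stands at 129 to 138 FPKM in LRH1+APAP livers, while Akr1b8 is highest in the APAP livers.

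Both tested aldehyde oxidases were higher in LRH1+APAP livers than in APAP livers. Aox1 stood at 58.6, 58.3 and 70.3 FPKM against 42.8, 37.4 and 44.3 FPKM, a log2 difference of 0.58 (SE 0.12, adjusted p = 0.0228). Aox3 stood at 41.4, 48.0 and 43.9 FPKM against 35.04, 18.5 and 23.2 FPKM, a difference of 0.82 (SE 0.19, adjusted p = 0.0296). Both calls were lost without APAP liver 3 or any 1 LRH1+APAP liver, with adjusted p up to 0.0861 for Aox1 and 0.102 for Aox3. Aox3 was also past 0.05 without vehicle liver 1 (0.0511) or vehicle liver 2 (0.0536).

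Of the 5 Fmo genes 2 rose between APAP and LRH1+APAP, and with an unadjusted p under 0.05 there were 4. Fmo1 reached 95.7, 95.7 and 100.5 FPKM against 56.2, 22.2 and 22.001 FPKM, a log2 difference of 1.65 (SE 0.31, adjusted p = 0.0167). That call was lost without APAP liver 3, LRH1+APAP liver 2 or LRH1+APAP liver 3, where the adjusted p was at most 0.0674. Fmo5 reached 190, 280 and 200 FPKM against 155, 62.2 and 105 FPKM, a difference of 1.12 with adjusted p = 0.0399, and its call held only without APAP liver 1 among the fits that left out a liver, with adjusted p of 0.0524 to 0.131 in the others. Fmo2 at 25.3, 31.7 and 20.6 FPKM overlapped the APAP livers, and its adjusted p was 0.105. Without APAP liver 1 it passed, at 0.00825.

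Fmo5 was deposited as 3 transcript models of 5193, 5277 and 5177 bases that share chr3:97628839-97655287, and the models did not move together. The 5193-base model stood at 231, 226 and 190 FPKM in vehicle livers, at 90.0, 7.88 and 64.0 FPKM in APAP livers and at 10.9, 13.5 and 26.4 FPKM in LRH1+APAP livers. The 5277-base model stood at 105, 93.2 and 91.8 FPKM, at 39.2, 13.4 and 21.7 FPKM and at 113, 199 and 86.5 FPKM in the same groups. The 5193-base model thus held 60.5% of the gene's FPKM in vehicle livers and 7.56% in LRH1+APAP livers, and the 5277-base model 27.1% and 59.4%. When only the model with the highest mean stood for the gene, the difference between LRH1+APAP and APAP turned to -1.16 (limma adjusted p = 0.343). How fragments were assigned among models that overlap over most of their length was not tested.

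**Figure D5:**
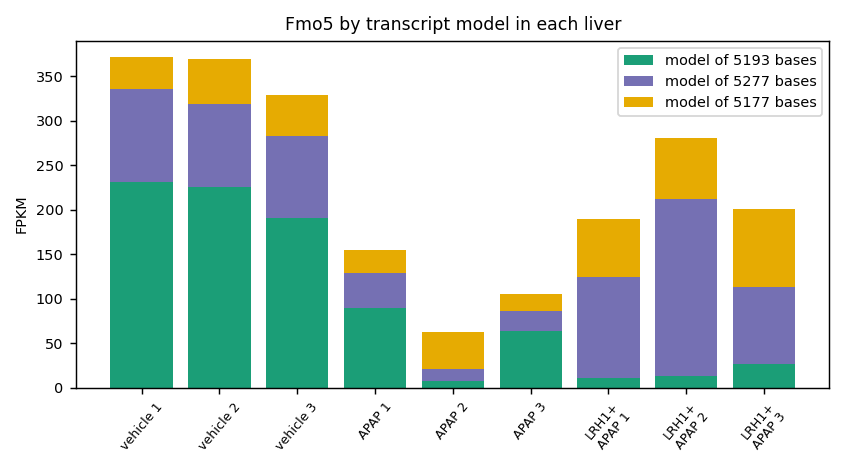
FPKM of Fmo5 in each liver, stacked by its 3 transcript models named by length. The 5193-base model is the largest part in the vehicle livers at 190 to 231 FPKM and the smallest in the LRH1+APAP livers at 10.9 to 26.4 FPKM.

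For the epoxide hydrolases limma called 0 of 2 genes in this comparison, and 1 had an unadjusted p under 0.05. Ephx1 stood at 219, 227 and 266 FPKM in LRH1+APAP livers, above the APAP livers at 210, 128 and 168 FPKM, with a difference of 0.51 and adjusted p = 0.0833. Without APAP liver 1 the adjusted p was 0.00949. Ephx2 stood at 443, 401 and 444 FPKM, inside the range of the APAP livers, with a difference of -0.15 (adjusted p = 0.516) that became 0.01 without APAP liver 1.

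The third comparison sets LRH1+APAP against vehicle and so measures how far each gene lay from the vehicle livers after the combined treatment. Of the 39 genes 8 were higher, 10 were lower and 21 did not pass the threshold. Over all tested genes 39.2% were higher and 8.02% lower, and the median difference was -0.27 for the members and 0.22 for all genes. The split depended on the scaling: with upper-quartile scaling 3 members were higher and 21 lower, and over all genes 4780 higher and 979 lower became 2358 and 2396. Without APAP liver 1, which enters this comparison through the shared estimate of the spread, 10 members were higher and 21 lower. With only the 6 libraries of the comparison there were 11 and 22. Over all genes 5690 were higher and 1363 lower without that liver, and 6076 and 1502 with the 6 libraries. With those 6 libraries further genes passed that did not with all 9. Among them were Adh1, Adh4, Adh5, Akr1c6, Akr1c14, Akr1c20, Aldh1a7, Aox3, Fmo1 and Fmo5, with limma adjusted p of at most 0.0129. Aldh3a2, Aldh6a1 and Ephx2 were lower and Aox1 higher under every alternative that was run. Aldh3b1 was higher under every alternative in which it was tested, which leaves out the filter at a mean of 5 FPKM.

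In the ADH family 0 of 5 genes were called against vehicle by limma, with 2 lower at an unadjusted p under 0.05. Adh1 at 622 ± 18.8 FPKM remained under all 3 vehicle livers, with a difference of -0.69 and adjusted p = 0.0539. Adh4 differed by -0.26 (adjusted p = 0.457) and Adh5 by -0.36 (adjusted p = 0.08). With upper-quartile scaling Adh1, Adh5 and Adh7 were lower (adjusted p = 0.0236, 0.0182 and 0.0262), and with quantile normalization Adh7 was (0.0198). Adh1 and Adh5 also passed without APAP liver 1 (0.0118 and 0.00705) or APAP liver 2 (0.00285 and 0.0216). Aldh3a2 was the aldehyde dehydrogenase with the largest difference, -1.15 (SE 0.13, adjusted p = 0.00035), and its mean of 65.6 ± 6.53 FPKM was 0.447 of the vehicle mean. Aldh6a1 was lower by 0.52 on the log2 scale (adjusted p = 0.00256), at 107 ± 0.924 FPKM. Aldh8a1 lay under every vehicle liver at 77.3 ± 3.35 FPKM without passing (difference -0.61, limma adjusted p = 0.115). It passed under 3 alternatives, with adjusted p down to 0.000126.

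Aldh9a1 was also lower, at 69.3 ± 3.92 against 90.2 ± 4.24 FPKM (difference -0.38, limma adjusted p = 0.0137), and was past 0.05 only without LRH1+APAP liver 2 (0.0515). Aldh1a1 was lower by a smaller margin, at 719 ± 44.4 against 874 ± 67.2 FPKM, with a difference of -0.28 and adjusted p = 0.0294. Without any 1 of the vehicle livers, LRH1+APAP liver 2 or LRH1+APAP liver 3 the adjusted p was 0.05 to 0.106, and upper-quartile scaling moved the difference to -0.55. Aldh3b1 was higher at 1.40, 2.00 and 1.86 FPKM (difference 0.61, adjusted p = 0.0016, and 0.31 with quantile normalization), and Aldh1a7 was higher in each LRH1+APAP liver but did not pass (0.42, adjusted p = 0.0588).

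Of the aldo-keto reductases 5 were higher and 2 lower than in vehicle. Akr1c19 had a difference of 0.92 (SE 0.26, adjusted p = 0.02), with LRH1+APAP livers at 86.9 to 95.1 FPKM and vehicle livers at 34.99 to 61.4 FPKM. It was past 0.05 without vehicle liver 3 (0.0694), without LRH1+APAP liver 1, 2 or 3 (0.0543, 0.0563 and 0.0508) and with upper-quartile scaling (0.0891). Akr1b8 remained above vehicle at 3.54 ± 0.833 against 1.19 ± 0.33 FPKM, with a difference of 1.05 and adjusted p = 0.0333. That call was lost without any 1 vehicle liver, without LRH1+APAP liver 1 or 3, and under both other scalings, with adjusted p up to 0.107. The other 3 that were higher were Akr1b7 (0.45, adjusted p = 0.00758), Akr1b10 (0.38, adjusted p = 0.0421) and Akr1a1 (0.32, adjusted p = 0.0478). With quantile normalization their differences were 0.15, 0.080 and 0.23 and all 3 calls were lost. With upper-quartile scaling Akr1a1 differed by 0.053 (adjusted p = 0.766) and Akr1b10 by 0.24 (adjusted p = 0.186). Without any 1 vehicle or LRH1+APAP liver the call of Akr1a1 was lost (adjusted p up to 0.143), as was that of Akr1b10 except without vehicle liver 1 (up to 0.134).

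The 2 aldo-keto reductases that were lower were Akr1c12 (-0.36, limma adjusted p = 0.0313) and Akr7a5 (-0.25, adjusted p = 0.0464). Each of these calls was lost in at least 5 fits that left out 1 liver, among them those without vehicle liver 1, vehicle liver 2 and each LRH1+APAP liver, with adjusted p up to 0.104 and 0.156. Akr7a5 was also lost without vehicle liver 3. Akr1c14, Akr1c6 and Akr1c20 stood under every vehicle liver without passing the threshold, with differences of -0.42, -0.40 and -0.55 and adjusted p of 0.45, 0.0795 and 0.0535.

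Aox1 was higher than in vehicle by 0.74 (SE 0.12, adjusted p = 0.00191), at 62.4 ± 6.85 against 37.0 ± 5.06 FPKM, and by 0.48 with upper-quartile scaling. Aox3 was above every vehicle liver by 0.36 but did not pass (adjusted p = 0.143). Ephx1 was higher by 0.74 (SE 0.17, adjusted p = 0.00934), at 237 ± 25.1 against 142 ± 16.9 FPKM, and lost the call with upper-quartile scaling (0.47, adjusted p = 0.0736). Ephx2 was lower, with a difference of -0.65 (adjusted p = 0.0081), at 429 ± 24.4 against 678 ± 88.8 FPKM. The 2 epoxide hydrolases therefore lay on opposite sides of vehicle in the same livers, a difference between genes that was not itself tested.

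Fmo2 was lower than in vehicle, with a log2 difference of -1.27 (adjusted p = 0.0369). It was past 0.05 without vehicle liver 1 or 3, APAP liver 3 or any 1 LRH1+APAP liver, at up to 0.119. Fmo1 at 97.3 ± 2.77 and Fmo5 at 224 ± 49.5 FPKM were under every vehicle liver, with differences of -0.49 and -0.69 and limma adjusted p of 0.213 and 0.0779. Without APAP liver 1 both passed, at 0.00154 and 0.0212, and Fmo5 also did without APAP liver 2 (0.0123) and with upper-quartile scaling (-0.96, adjusted p = 0.0364). With only its model of highest mean, the 5193-base one, Fmo5 differed from vehicle by -3.69 (adjusted p = 0.00732).

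Companion genes outside the 57 were taken from lists chosen by function, and their counts are best read beside the shares of all tested genes. Some genes stand on more than 1 list, so the counts are not independent. Cyp2e1, Cyp2c50 and Cyp2c54 are also among the central vein markers, and Nqo1, Cbr3 and G6pdx are also among the NRF2 targets. With APAP 47.8% of all tested genes were higher and 15.1% lower. Between APAP and LRH1+APAP 7.13% were higher and 5.17% lower, and between vehicle and LRH1+APAP 39.2% and 8.02%. The 5 tested genes of ethanol and acetaldehyde handling all fell with APAP and all rose between APAP and LRH1+APAP. Cyp2e1, which oxidises ethanol and APAP itself, went from 8373 ± 426 to 2009 ± 391 and then to 3845 ± 189 FPKM, with differences of -2.07 (adjusted p = 1.88e-05) and 0.95 (adjusted p = 0.00626). Adhfe1 and Acss3 differed by -1.06 and -1.43 and then by 0.58 and 0.78. When 1 liver was left out, all 5 genes still fell with APAP, and 1 to 5 rose between APAP and LRH1+APAP.

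Of 22 tested genes of vitamin A metabolism, the pathway of the ADH and ALDH1A enzymes, 8 fell and 6 rose with APAP. With quantile normalization 8 fell and 3 rose, and with upper-quartile scaling 10 and 4. Between APAP and LRH1+APAP 2 rose, near the 7.13% of all tested genes, or 2 to 10 with a liver left out. Those 2 were Cyp26a1, which degrades retinoic acid, and Rdh9, a retinol dehydrogenase. Cyp26a1 stood at 3.49, 2.22 and 1.504 FPKM in vehicle, 2.16, 1.42 and 1.94 FPKM in APAP and 6.87, 8.24 and 7.91 FPKM in LRH1+APAP livers, with a difference of 1.62 between the last 2 groups (limma adjusted p = 0.00424). Rdh9 and Rdh16 fell with APAP by 1.28 and 1.29 on the log2 scale, while Dhrs9 rose by 1.501.

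Of 15 other carbonyl and quinone reductases 9 fell and 3 rose with APAP, and 6 rose between APAP and LRH1+APAP, or 1 to 11 with a liver left out. Ptgr1, which reduces enones, was 0.630 ± 0.0422, 1.40 ± 0.382 and 4.005 ± 0.56 FPKM in the 3 groups, with a difference of 1.07 between APAP and LRH1+APAP (limma adjusted p = 0.00409). Of 9 genes of molybdenum enzymes and their cofactor 7 fell and 2 rose with APAP, and Xdh, Mocs2 and Suox rose between APAP and LRH1+APAP, with 1 to 6 genes rising when a liver was left out. Xdh (xanthine dehydrogenase, a relative of the aldehyde oxidases) was 29.2 ± 2.59, 22.5 ± 1.23 and 36.0 ± 1.82 FPKM in the 3 groups, a difference of 0.66 between the last 2 (adjusted p = 0.00424).

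Of 12 genes of folate one-carbon metabolism, the pathway of Aldh1l1, 8 fell and 4 rose with APAP. Between APAP and LRH1+APAP 0 rose and 1 fell, or 0 to 5 and 0 to 1 with a liver left out. Mthfd2, the mitochondrial enzyme, rose with APAP from 0.578 ± 0.0712 to 8.31 ± 1.89 FPKM (log2 difference 2.54, limma adjusted p = 1.25e-05). It was the gene that fell between APAP and LRH1+APAP, to 5.26 ± 0.774 FPKM (difference -0.56, adjusted p = 0.0431). Another list held 12 cytochrome P450 genes that make fatty acid epoxides, the substrates of Ephx2, or hydroxy acids, which are not. Of these 12, 10 fell with APAP, or 8 to 11 with a liver left out, and 6 rose between APAP and LRH1+APAP, or 3 to 9. Of 13 genes for flavin and electron supply 6 rose and 5 fell with APAP, and the rises were near the 47.8% of all tested genes. Pgd, an enzyme that yields NADPH, rose from 5.21 ± 0.127 to 25.9 ± 6.89 with APAP and stood at 45.4 ± 7.42 FPKM with LRH1+APAP. Of 16 targets of NRF2 outside the members, 11 rose with APAP and all 16 were higher in LRH1+APAP than in vehicle livers (15 with upper-quartile scaling, 14 with quantile normalization). Their median differences were 1.303 and 1.98, beside 0.25 and 0.22 for all genes.

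Single livers of the APAP group stood apart in many members. APAP liver 1 had the highest level of its group in 31 of the 39 tested genes (79.5%), against 31.75% of all tested genes, and APAP liver 2 the lowest in 30 of 39 (76.9%), against 36.2% of all. In vehicle and LRH1+APAP livers no liver was the highest in more than 17 of the 39 genes. Vehicle liver 3 was the lowest of its group in 22 of 39 (56.4%), against 44.5% of all, and no LRH1+APAP liver was the lowest in more than 15. The marker sums also differed between the APAP livers. The neutrophil and monocyte markers summed to 86.2, 528.5 and 190.4 FPKM in APAP livers 1, 2 and 3, and the markers of hepatocytes near the central vein to 2966, 2232 and 2122 FPKM, most of it from Cyp2e1. The part of these differences in the members' values was not tested.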

How the data were processed

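The deposited values were FPKM of the authors, 1 column per liver, for 36779 transcript models on mm10. Tools named in the submitters' processing notes are StringTie 1.3.3b, Bowtie2 2.2.6 and FastQC 0.10.0, with no roles. Per the labels' protocols, RNA came from RNAlater tissue by Trizol extraction and went into Illumina TruSeq mRNA libraries. No scaling between libraries is stated. Read counts could not be recovered: 52.1% to 57.8% of low values came within 0.05 of a whole-read step. The depth of each library is therefore unknown and no counting interval is given. FPKM summed to 520072 to 575365 per library, and no pair of libraries held identical values.

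FPKM was summed over the models of a symbol. Genes averaging 0.5 FPKM or more were tested on log2(FPKM + 1) with limma 3.58.1 in R 4.3.3 (package data.table, version 1.17.8), in 1 model of 3 groups with 6 residual degrees of freedom, an intensity trend and Benjamini-Hochberg adjustment over 12202 genes. The steps were tested on simulated data with the same spread in every group, so the wider spread of the APAP livers was not covered. Figures used Python 3.11.15, pandas 2.3.3 and matplotlib 3.10.9. Alternatives were 12 other settings and leaving out each of 9 livers. Recounting the companion lists under each scaling and without each liver was added after seeing the data. Sequences came from RefSeq windows and GENCODE transcripts. Named genes were a panel of known hepatic members, the 6 largest called rises and falls per comparison among members with at least 1 FPKM, and the 3 genes of smallest p in each companion list; others are named as exceptions or by range. 1 tested gene, included in the counts, is not reported here. The members, lists and rules were chosen with earlier results of these data known.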

Additional observations from a re-analysis of the deposited data

How the results depend on the processing

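With APAP against vehicle, 3 members were higher and 25 lower, and leaving out 1 liver gave 2 to 4 and 23 to 28. The 3 became 10 without the filter, 1 with a filter at 5 FPKM and 1 with quantile normalization. Of these 28 calls 23 held under every alternative in which the gene was tested. Between LRH1+APAP and APAP the 16 higher members became 2 with only the 6 libraries of the comparison in the fit, and 2 to 30 with a liver left out. The 2 lower members became 1 with upper-quartile scaling, quantile normalization, no intensity trend or the highest model per symbol, 0 with 6 libraries (limma, 2 at an unadjusted p under 0.05), and 0 to 2 with a liver left out. Against vehicle the 8 higher members of LRH1+APAP became 5 with the filter at 5 FPKM, 3 with upper-quartile scaling, 4 with quantile normalization and 4 to 11 with a liver left out. The 10 lower became 21 with upper-quartile scaling, 22 with 6 libraries and 4 to 21 with a liver left out. Fits with fewer libraries have fewer degrees of freedom and another estimate of the spread. Counts moved in both directions, and the part of either was not tested.

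No pairing of the samples by liver number was seen: same-numbered livers of different groups correlated at -0.136 to 0.0682 in their deviations, and 1 of 9 libraries correlated best with its own number. With 3 livers per group this cannot exclude a pairing. With the number as a replicate block, members higher and lower were 3 and 25, then 11 and 0 (limma, 2 lower at an unadjusted p under 0.05), then 6 and 9.

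Reversed signs, all in differences not past the threshold except Fmo5 (1.12 to -1.16 with the highest model per symbol): with upper-quartile scaling Akr1a1 -0.24, Akr7a5 -0.19, Aldh16a1 -0.073, Aox1 -0.098 and Ephx1 -0.044 for APAP against vehicle and Akr1c13 -0.19 for LRH1+APAP against vehicle. With quantile normalization Adh6-ps1 was -0.13, Akr1a1 -0.075, Akr1b7 -0.047, Akr7a5 -0.053 and Aldh16a1 -0.13 for APAP against vehicle. With a liver left out Akr1a1 ranged from -0.11 to 0.12 and Aldh1a7 from -0.37 to 0.015. Between LRH1+APAP and APAP, Adh7 ranged from -0.0197 to 0.19, Akr1b10 from -0.16 to 0.053 and Ephx2 from -0.27 to 0.012.

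Over all genes, LRH1+APAP against APAP gave 870 higher and 631 lower, 203 and 60 with 6 libraries, 508 and 299 with the replicate block, and 157 to 2038 and 53 to 2604 with a liver left out. With a liver left out APAP against vehicle gave 5004 to 6183 higher and 1489 to 2253 lower. LRH1+APAP against vehicle gave 3283 to 5690 higher and 543 to 1363 lower.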

Other observations

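The 18 members under the filter reached at most 1.04 FPKM in any liver, and Adh6a, Akr1cl and Fmo9 were listed at 0 in all 9. Aldh18a1, the first enzyme of proline synthesis from glutamate, was 0.058 ± 0.0588, 0.610 ± 0.186 and 0.777 ± 0.231 FPKM in vehicle, APAP and LRH1+APAP livers, and in the limma fit without the filter it had log2 differences from vehicle of 0.60 (adjusted p = 0.00358) and 0.74 (adjusted p = 0.00257). Aldh1l2, the mitochondrial relative of Aldh1l1, was 0.0313 ± 0.0217, 0.242 ± 0.0574 and 0.337 ± 0.103 FPKM, with differences of 0.27 (adjusted p = 0.00661) and 0.37 (adjusted p = 0.00289). Aldh1l1 itself fell with APAP by 0.91.

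Akr1c18, which inactivates progesterone, was 0.0202 ± 0.035, 0.477 ± 0.11 and 0.174 ± 0.061 FPKM in the same groups, and it differed by 0.53 with APAP (limma adjusted p = 0.000562) and by -0.33 between LRH1+APAP and APAP (adjusted p = 0.025). Aldh1a2, a retinaldehyde dehydrogenase known from stellate and mesothelial cells, was 0.008 ± 0.0139, 0.137 ± 0.0579 and 0.306 ± 0.116 FPKM, with a difference of 0.37 between LRH1+APAP and vehicle (adjusted p = 0.00471). Aldh1a3, a relative of it, was 0.123, 0.798 and 0.826 FPKM in the APAP livers and at most 0.190 FPKM elsewhere. All these levels are low, and the depth behind them is unknown. Akr1b3, aldose reductase, was listed at 0.0638 to 0.473 FPKM, and 56.2% of the 50-base stretches of its transcript also occur in Gm6644, so the split of reads between both is uncertain.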
